A study of Homo sapiens with 12 samples.

Results

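The binding of SREBP2 and RORγ was compared in vehicle-treated HCC70 cells, an established line of human triple-negative breast cancer. All 117441 SREBP2 regions and 167264 RORγ regions called on chromosomes 1 to 22 and X in these 2 libraries were used, which are 284705 of the 684829 regions of the 6 immunoprecipitated libraries of the series. Regions of the 2 lists with at least 1 bp in common were called shared, and the others SREBP2 only or RORγ only. Cells at passage 6 to 9, growing in RPMI with serum, had received vehicle for 24 h. SREBP2 was precipitated with a commercial antibody, and RORγ with a rabbit serum raised against a fragment of the human protein. Of the other libraries, the H3K27ac vehicle library and the 2 factor libraries made after 24 h with XY018, a RORγ antagonist given at 5 µM in the labels, were read only as independent measurements at the same regions. Each group was 1 library of 1 cell line. There is therefore no p-value and no replicate check, and the 95% intervals given here cover counting error only. Differences in antibody and depth between the 2 libraries cannot be told apart from differences between the factors.

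SREBP2 is a membrane-bound transcription factor that is cut free when cells are short of sterols, enters the nucleus and binds sterol regulatory elements (SREs) at genes of cholesterol synthesis and uptake. RORγ is a nuclear receptor that binds DNA as a monomer at an AGGTCA half-site preceded by an A and T rich stretch. Its short isoform, RORγt, directs the Th17 programme of T cells, and ROR receptors also act on the circadian clock.

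To show what the classes look like at the level of DNA, stretches around motif and word matches in lipid promoters and in strong shared and SREBP2-only regions are printed from hg19 (GRCh37), 5′ to 3′ on the strand given, with the matching letters in capitals. The first set holds SREs (TCACNCCAC) in promoters of lipid genes, with HMGCS1, the first committed enzyme of the mevalonate route, and SREBF2, the gene of SREBP2 itself.
HMGCS1, chr5:43313739-43313799, minus strand: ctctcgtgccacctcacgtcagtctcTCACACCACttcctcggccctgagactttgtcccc
SREBF2, chr22:42228950-42229010, plus strand: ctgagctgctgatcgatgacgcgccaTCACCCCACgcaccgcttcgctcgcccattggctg

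The second set comes from shared regions, with the GC box (GGGCGG) in an intron of PRKAR1B, a triplet repeat in an intron of PAX7, a 12-base word found in an intron of CCDC171, and the SRE nearest DEGS2.
GC box, PRKAR1B, chr7:751840-751897, minus strand: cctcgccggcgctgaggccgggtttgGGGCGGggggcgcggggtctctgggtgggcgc
Triplet repeat, PAX7, chr1:19043507-19043570, plus strand: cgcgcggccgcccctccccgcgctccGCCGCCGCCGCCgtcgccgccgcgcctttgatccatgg
12-base word, CCDC171, chr9:15810619-15810682, minus strand: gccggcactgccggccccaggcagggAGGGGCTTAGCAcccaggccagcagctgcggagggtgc
SRE, nearest DEGS2, chr14:100631843-100631903, minus strand: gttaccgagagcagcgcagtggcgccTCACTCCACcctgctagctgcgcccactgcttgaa

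The last stretch comes from an SREBP2-only region, with its SRE in capitals, for comparison with the shared ones.
SRE, SREBP2 only, intron of ENSG00000287297, chr6:168045499-168045559, plus strand: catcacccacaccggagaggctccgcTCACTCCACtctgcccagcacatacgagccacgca

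The first question was how the regions fell into classes. Of the SREBP2 regions, 57535 (49.0%) were shared and 59906 were SREBP2 only. Of the RORγ regions, 57891 (34.6%) were shared and 109373 were RORγ only. These shares depended on the threshold of the lists, and at q of at most 1e-05 in both lists they stood at 60.7% for SREBP2 and 86.7% for RORγ. They formed 61990 overlapping pairs, because 4088 SREBP2 regions held 2 or more RORγ regions, up to 6. With XY018, 64.0% of 69700 SREBP2 regions and 33.9% of 129954 RORγ regions were shared.

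The classes differed in strength. The SREBP2 library held 5.56 tags per kb of mappable genome and the RORγ library 4.04, as worked out from the fold and p-value of each peak. The smallest number of fragments at a called summit was 4 and 3, respectively. Fold enrichment is the number of fragments at the summit plus 1 over the local background plus 1. Its median was 8.38 for SREBP2 at shared regions (20 fragments) and 3.63 at SREBP2-only regions (8 fragments). For RORγ it was 5.60 at shared regions (11 fragments) and 3.36 at RORγ-only regions (6 fragments). The lists were called at p of at most 0.01, and a q of at most 1e-05 was met by 71.2% of shared SREBP2 regions, 54.7% of shared RORγ regions, 17.1% of SREBP2-only regions (10255) and 2.87% of RORγ-only regions (3140). The RORγ-only class thus consisted mostly of summits with few fragments. Either side of the 1 bp limit the values were close. The 368 pairs with an overlap of 10 bp or less had a median SREBP2 fold of 4.13, and the 259 SREBP2-only regions with a gap under 10 bp had 3.76.

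The share of shared regions rose with strength. In 10 equal-sized classes of fold, 22.4% of SREBP2 regions in the lowest class and 99.7% in the highest overlapped a RORγ region. For RORγ the corresponding shares were 13.6% and 99.98%. The highest class held 38 regions with SREBP2 only and 3 with RORγ only.

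**Figure D1:**
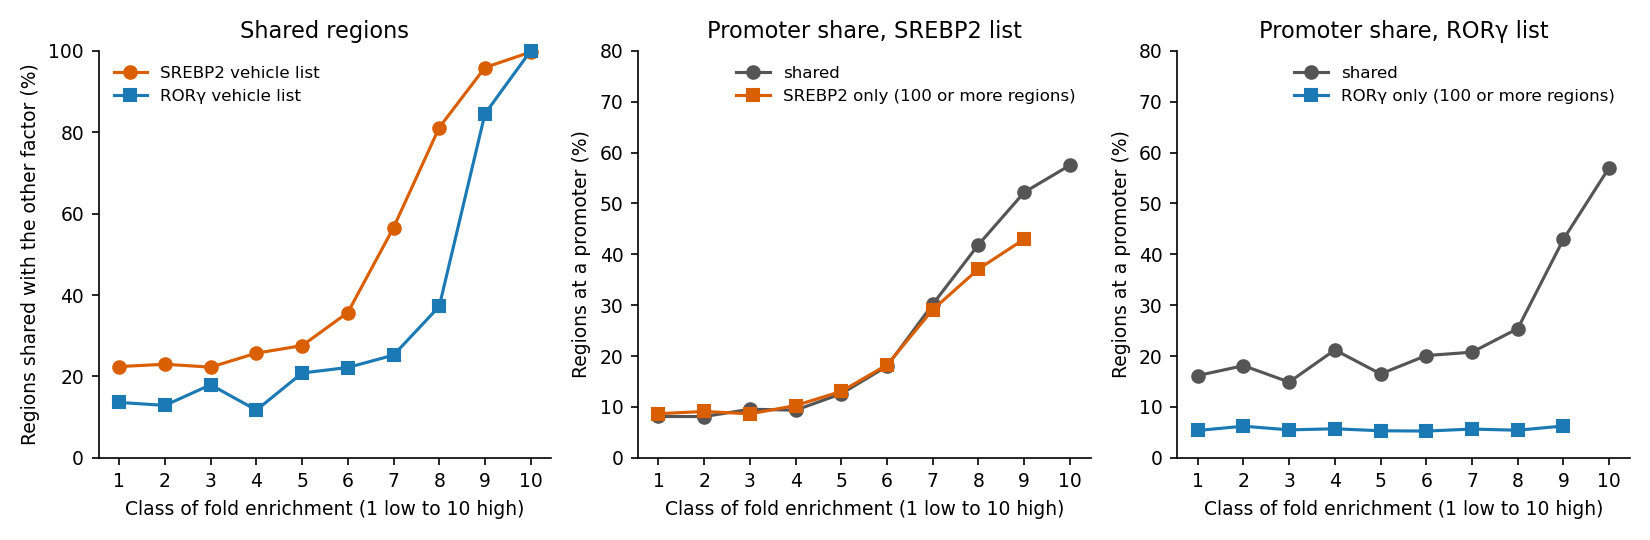
Share of regions shared with the other factor (left) and share of regions at a promoter (middle, SREBP2 list; right, RORγ list), both in percent, by 10 equal-sized classes of fold enrichment of 1 library each. The shared share climbs to 99.7% and 99.98%, and RORγ-only regions stay between 5.26% and 6.26% at promoters in classes 1 to 9 while shared regions reach 57.0% in class 10.

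The strongest shared regions lay in GC-rich introns, at a promoter and near a transcript end. Ranked by the lower of both folds, the first was in PRKAR1B, a regulatory subunit of protein kinase A, with summits 20 bp apart. The second lay at chromosome 10, 26855764 to 26856504, near a transcript end of APBB1IP, an adaptor of integrin signalling. It held 98 SREBP2 fragments (fold 42.6) and 96 RORγ fragments (fold 44.2), and its summits were 1 bp apart. The third was at the promoter of CACNA1B, a subunit of neuronal calcium channels, and the next 2 lay on chromosome 10 at 38069459 in an intron of ENSG00000226578 and on chromosome 8 at 77590147 near ZFHX4. These last had no H3K27ac region. All 5 were called again for both factors with XY018.

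The strongest SREBP2-only region lay at the promoter of PPP2R1A, the scaffold subunit of protein phosphatase 2A, on chromosome 19 at 52693426 to 52693816. It had a fold of 19.7 with 39 fragments (27.7 to 53.3), and its summit was 9 bp from a transcript start. The next 4 were on chromosome 22 at 19877912 (fold 19.2), on chromosome 6 at 33802411 in intergenic DNA nearest MLN (18.3), at the ZNF839 promoter on chromosome 14 at 102783228 to 102783517 (17.1), and in an intron of PRR12 on chromosome 19 at 50096562 (16.8). A CCAAT box lay in 4 of these 5 windows and a GC box in 4. All 5 were called again for SREBP2 with XY018, and 3 of them then overlapped a RORγ region, so that the PPP2R1A and ZNF839 regions were without RORγ under both treatments.

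The strongest RORγ-only regions were weaker. The first lay in an intron of LINC02341 on chromosome 13 at 43050035, with a fold of 13.4 and 27 fragments (17.8 to 39.3). It was followed by a region nearest PAK1 on chromosome 11 (11.8), a region on chromosome X at 136082216 (11.2), an intron of PCGF3 on chromosome 4 (10.6) and an intron of PIAS1 on chromosome 15 (10.6). All 5 held a GC box, had GC contents of 59.2% to 79.6%, lacked H3K27ac and were called again for RORγ with XY018. With XY018, 4 of the 5 overlapped an SREBP2 region. The top of this class therefore looked unlike its bulk, which is described next.

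Genomic position differed between the classes. Promoters were counted from 1000 bp before to 100 bp after an annotated transcript start. Such a promoter was overlapped by 36.0% of shared SREBP2 regions (35.6 to 36.4%), 13.9% of SREBP2-only regions (13.6 to 14.2%) and 5.58% of RORγ-only regions (5.45 to 5.72%). The SREBP2-only share was 8.31 percentage points above the RORγ-only share (8.003 to 8.62). By summit, 26.97% of shared, 11.7% of SREBP2-only and 4.75% of RORγ-only regions lay in promoters, against 4.56% of the bases of the genome. Coding exons held 7.004%, 3.23% and 0.2999% of the summits and 0.747% of the genome. Introns and intergenic DNA together held most of the RORγ-only summits (50.8% and 37.6%), close to the genome's 52.0% and 35.8%. The median distance to the nearest transcript start was 2326 bp, 6239.5 bp and 10581 bp.

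**Figure D2:**
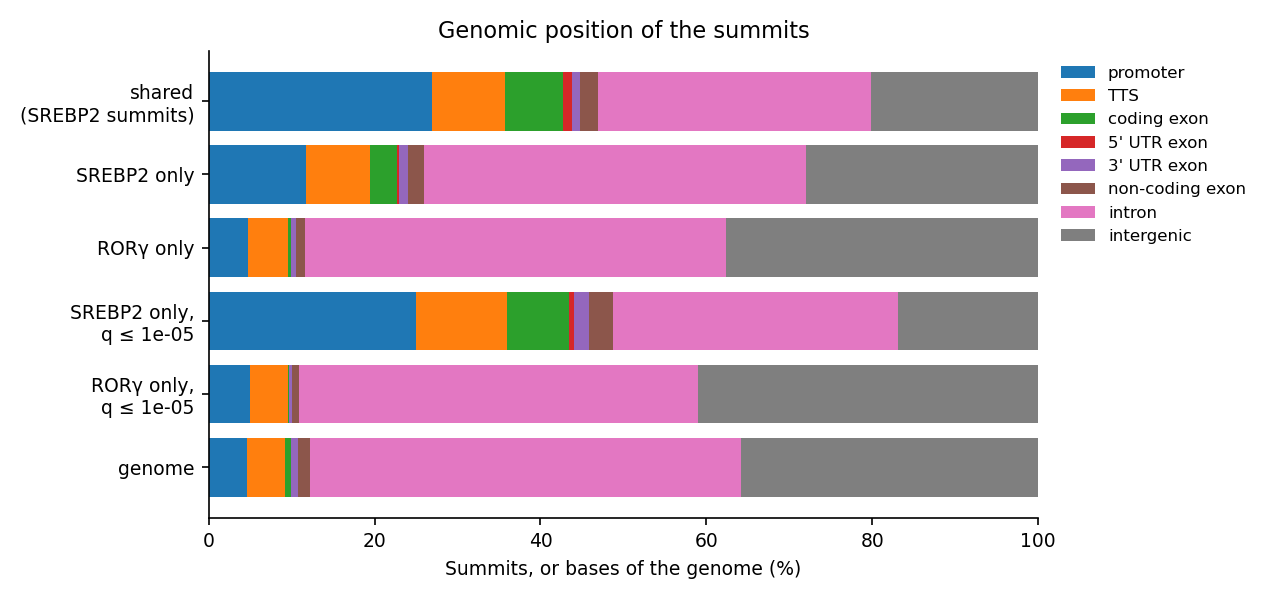
Share of summits (percent) by genomic position for shared, SREBP2-only and RORγ-only regions, for the 2 single-factor classes at q of at most 1e-05, and for all bases of the genome. Promoter summits make up 26.97%, 11.7% and 4.75% of the 3 classes, and 24.9% and 4.94% of the 2 stricter classes, against 4.56% of the genome.

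Part of these contrasts went with strength, and they did so differently for the 2 factors. Within classes of fold, the promoter share of shared SREBP2 regions was 2.82 points above that of SREBP2-only regions (1.13 to 4.51). SREBP2-only regions had the higher share in classes 1, 2, 4, 5 and 6, and class 10, of highest fold, held only 38 of them. Without class 10 the difference was 1.42 points (0.737 to 2.11). The direction turned to -3.18 points when summits had to be at most 100 bp apart, and to -1.12 points with promoters of 5000 bp to either side. Shared RORγ regions were 20.2 points above RORγ-only regions at like fold. Class 10 held 3 RORγ-only regions, none at a promoter, and without it the difference was 16.2 points (15.7 to 16.6). RORγ-only regions showed 5.38% at promoters in the lowest class and 6.26% in class 9, where shared regions showed 16.2% and 43.0%. At q of at most 1e-05, 30.3% of SREBP2-only and 5.89% of RORγ-only regions overlapped a promoter.

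H3K27ac, which marks active regulatory DNA and played no part in forming the classes, was present at 40.7% of shared SREBP2 regions, 14.4% of SREBP2-only regions (14.1 to 14.7%) and 3.38% of RORγ-only regions (3.27 to 3.48%). The H3K27ac list holds part of a longer call set, so absence from it is not absence of the mark. Within classes of fold, SREBP2-only regions had the higher share in classes 1 to 7, and shared SREBP2 regions in classes 8 to 10. The SREBP2-only and shared shares were 10.0% and 5.77% in class 1, 30.5% and 29.7% in class 7, and 43.9% and 48.0% in class 8. In the RORγ list, shared regions had the higher share in every class. The difference between the single-factor classes was 11.01 points (10.7 to 11.3), and at q of at most 1e-05 the shares were 33.6% and 2.64%. Lineage markers were read on the same list beside the label of the cell line. A promoter region of H3K27ac was present at 7 of 9 basal markers, at 6 of 9 luminal markers and at 2 of 5 haematopoietic markers (SPI1 among them, but not PTPRC, CD3E or CD4), against 66.8% of all protein-coding promoters. With basal and luminal shares so alike (77.8% and 66.7%) and so few genes, these counts cannot tell a basal from a luminal line.

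The distance between the summits of a shared pair was short. Its median was 66 bp (65 to 67), the middle 50% of pairs lay between 25 and 180 bp, 61.4% were within 100 bp and 9.75% were over 500 bp apart. Pairs at promoters and elsewhere had the same median. In the 32388 pairs with q of at most 1e-05 in both lists, the median was 49 bp, and 68.0% were within 100 bp. There the median was 57 bp (55 to 58) at promoters and 42 bp (41 to 43) elsewhere. At the 22866 promoter pairs, the RORγ summit lay downstream of the SREBP2 summit in 50.1% and upstream in 49.3%, with a median offset of 1 bp (0 to 2) along the direction of transcription. No order along the gene was seen at this resolution.

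Shared regions were about as wide for RORγ (median 430 bp) as for SREBP2 (455 bp), and in 47.4% of pairs the shorter region lay wholly inside the longer. The single-factor regions were near the shortest width the peak caller allowed, which is the fragment length of 185 bp for SREBP2 and 195 bp for RORγ. Their medians were 221 bp and 216 bp, and at q of at most 1e-05 318 bp and 313 bp. Shared regions covered 34.0 Mb in the SREBP2 list, SREBP2-only regions 15.3 Mb and RORγ-only regions 27.05 Mb. The nearest region of the other factor lay at a median of 2773 bp from SREBP2-only regions and 6821 bp from RORγ-only regions.

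**Figure D3:**
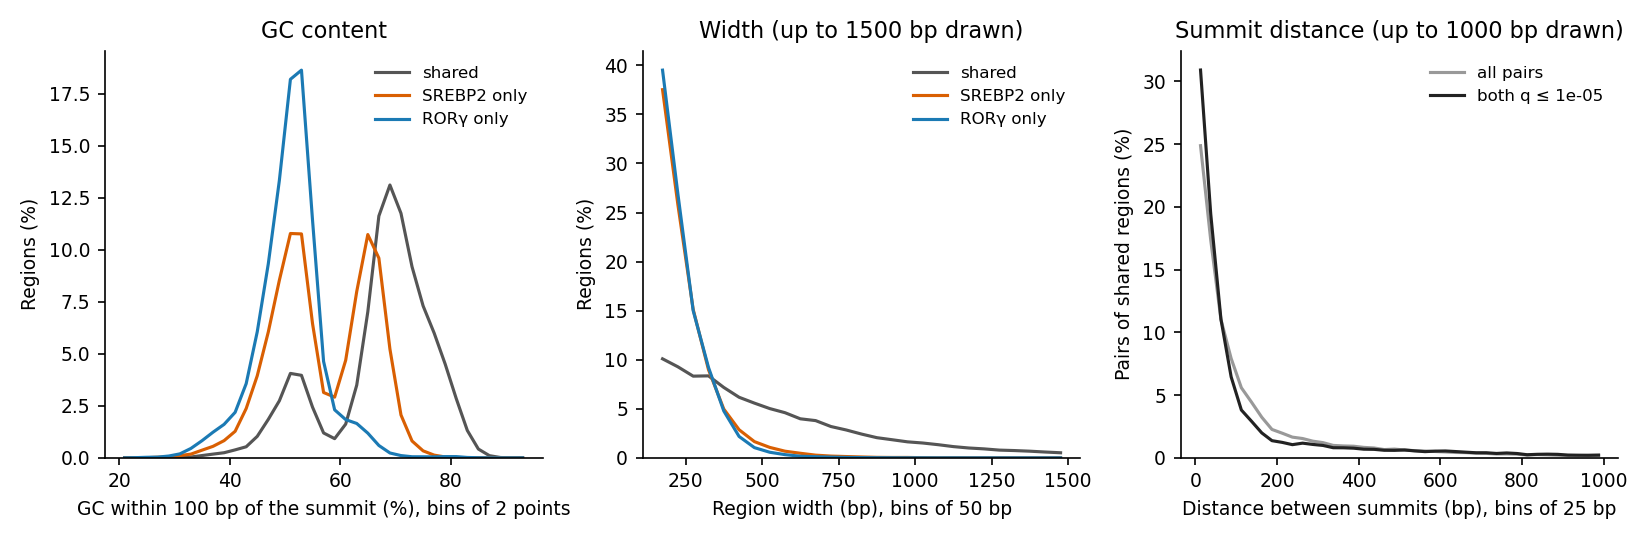
Distribution of GC content within 100 bp of the summit (left, percent), of region width (middle, bp) and of the distance between the summits of shared pairs (right, bp), each as a share of regions or pairs in percent. Shared regions centre on a GC content of 68.7%, RORγ-only regions on 51.2%, SREBP2-only regions have 2 humps with a median of 55.2%, and most pairs lie within 100 bp.

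Sequence content also differed between the classes. The median GC content within 100 bp of the summit was 68.7% for shared regions, 55.2% for SREBP2-only and 51.2% for RORγ-only regions, with 52.2%, 47.5% and 43.0% in windows 1000 bp away. SREBP2-only regions were a mixture, since 41.7% of them exceeded 60% GC, compared with 80.3% of shared and 5.90% of RORγ-only regions. Of the stronger SREBP2-only regions (q of at most 1e-05), 88.5% exceeded 60%, and their median was 66.2%. CpG dinucleotides numbered 5.97, 2.49 and 1.99 per 100 bp (medians) in the 3 classes. At that threshold the median GC was 71.1% for shared and 52.2% for RORγ-only regions. The median CpG number was 7.96 for shared, 4.975 for SREBP2-only and 1.99 for RORγ-only regions. By these measures the stronger SREBP2-only regions lay below shared regions of the same threshold, but nearer to them than the stronger RORγ-only regions did.

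The GC box, the binding site of Sp and KLF factors, was frequent in shared regions. Their windows were also richer in GC than the flanks (medians 68.7% and 52.2%). The shares were not adjusted for this, so they do not show whether the motif exceeds what base composition gives. It lay in 43.7% of shared windows (12.3% in the flanks), 17.1% of SREBP2-only windows (7.16%) and 7.94% of RORγ-only windows (4.63%). Of 146028 windows of the same length around protein-coding transcript starts, 36.0% held it. Within shared windows it was found nearest the summit most often, in 19.7% of windows within 25 bp and in 13.8% between 75 and 100 bp. Of the 519661 GC boxes in the genome, 26.05% lay in shared regions, which cover 1.43% of the known bases. The triplet word GCCGCCGCCGCC was still more concentrated. Of its 8591 copies, 90.6% (89.9 to 91.2%) lay in shared regions. The word AGGGGCTTAGCA, printed above from CCDC171, ranked 6 by frequency in shared windows at q of at most 1e-05. Of its 1650 copies, 80.8% (78.8 to 82.7%) lay in shared regions.

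The SRE was no more frequent at shared summits than beside them. It was found in 1.61% of shared windows, as often as in their flanks (1.60%), in 3.21% of SREBP2-only windows (1.72% in the flanks) and in 3.79% of RORγ-only windows (1.61%). The SREBP2-only minus RORγ-only difference was -0.579 points (-0.758 to -0.396), and -0.105 points (-0.220 to 0.0120) in windows of 50 bp to either side, where its interval held 0. Among transcript starts, 0.870% of windows held an SRE. The SREs of SREBP2-only windows were not centred on the summit, with 0.651% of windows holding one within 25 bp and 1.08% between 75 and 100 bp. At q of at most 1e-05, 1.44% of SREBP2-only windows held an SRE against 1.61% of their flanks. The E-box CACGTG, which SREBP factors can also bind, lay in 5.30% of shared windows (3.74% in the flanks), 4.15% of SREBP2-only windows (2.99%), 2.81% of RORγ-only windows (2.30%) and 4.74% of windows at transcript starts.

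The ROR half-site AGGTCA was most frequent in RORγ-only windows. It lay in 32.5% of them (14.5% in the flanks), in 22.1% of SREBP2-only windows (15.3%), in 11.9% of shared windows (13.9%) and in 9.57% of windows at transcript starts. The longer RORE core, which adds the A and T rich stretch and can end in this half-site, lay in 0.256% of RORγ-only windows, below the 0.588% of their flanks, in 0.157% of SREBP2-only and 0.127% of shared windows (flanks 0.553% and 0.476%), and in 0.373% of windows at transcript starts. The CCAAT box (CCAAT), bound by NF-Y, was less frequent at the summit than in the flanks in every class, at 8.73% against 20.1% in shared, 12.7% against 21.8% in SREBP2-only and 14.3% against 24.97% in RORγ-only windows, and 22.9% of windows at transcript starts held it. Both strands were searched for every motif, and a match is not evidence of binding. In every class the summits were richer in GC than the flanks. No motif share was adjusted for base composition, and its part in these differences was not tested.

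Most RORγ-only windows held words of 1 kind of repeat, and the half-site was more frequent in those windows. The 12-base word most frequent in RORγ-only windows, CTGGGATTACAG, was present in 30.8% of them and in 7.16% of their flanks, and the next, including AAAAATACAAAA (27.3%, flanks 5.13%), are likewise words of the consensus of Alu elements, short interspersed repeats of primate genomes. No annotation of repeats was used here. The 10 leading words of RORγ-only windows were also the 10 leading words of SREBP2-only windows, in another order. Most of them led in shared windows too, although other words led in shared windows at q of at most 1e-05. At least 1 of the 10 leading words was found in 62.5% of RORγ-only windows (62.2 to 62.8%; flanks 14.0%), in 38.6% of SREBP2-only windows (flanks 14.2%) and in 14.0% of shared windows (flanks 10.1%). Among RORγ-only regions the share was higher at q of at most 1e-05, at 71.3%, whereas it was 6.49% for SREBP2-only and 1.26% for shared regions at that threshold. The half-site was present in 43.1% of RORγ-only windows with such a word and in 14.8% of those without, close to the 13.8% of the flanks of the latter. Of the 730218 copies of CTGGGATTACAG in the genome, 6.48% lay in RORγ-only, 1.76% in SREBP2-only and 1.10% in shared regions. According to the study's methods, tags that matched several places were removed, and the part of this step in the result was not tested.

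**Figure D4:**
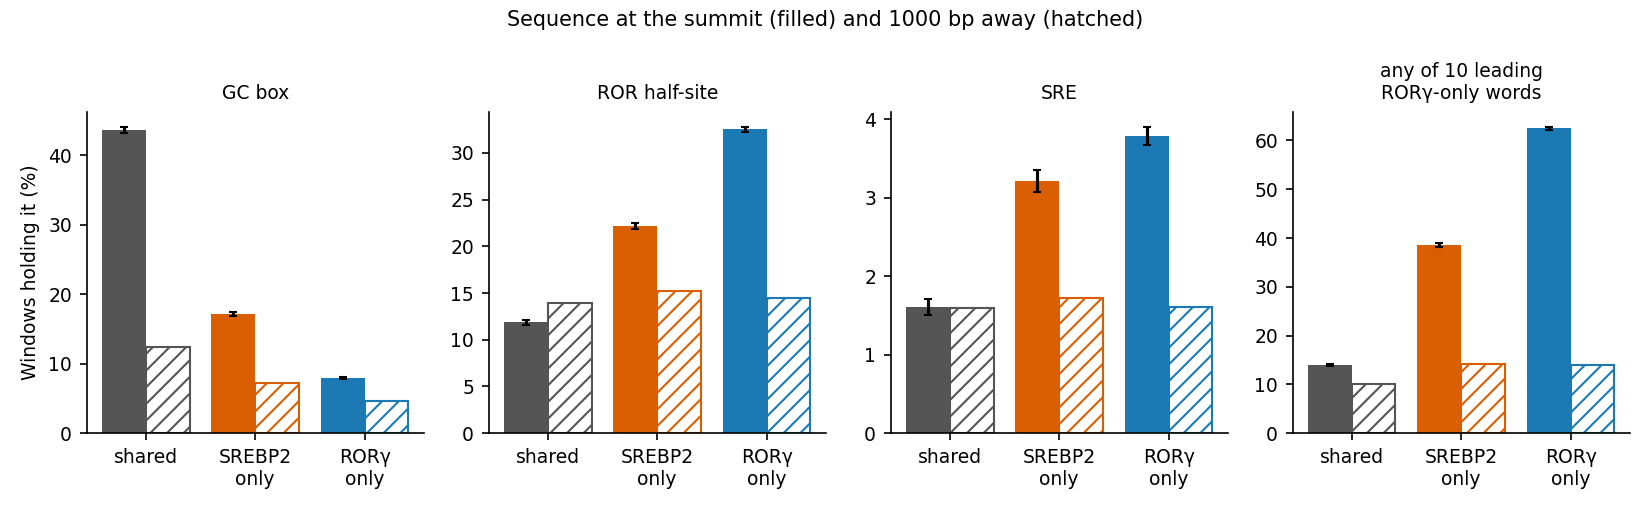
Share of windows reaching 100 bp to either side of their centre (percent) that hold a GC box, a ROR half-site, an SRE or any of the 10 leading RORγ-only words, at the summit (filled bars, with 95% counting intervals) and 1000 bp away (hatched bars), for shared, SREBP2-only and RORγ-only regions. The GC box falls from 43.7% to 7.94% across the classes, and the leading words, picked in RORγ-only windows, climb from 14.0% to 62.5%.

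Without the regions that hold a leading word, the 2 single-factor classes lay further apart. The median GC content was then 63.7% for SREBP2-only and 50.2% for RORγ-only regions. Promoters were overlapped by 19.5% of SREBP2-only and 7.39% of RORγ-only regions without a word, compared with 4.93% and 4.50% of those with one. The SRE shares were 2.38% and 3.59% without a word.

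Whether the single-factor calls were found again was read from the XY018 libraries, which did not enter the classes. SREBP2-only regions overlapped an SREBP2 XY018 region in 11.6% of cases (11.4 to 11.9%) and RORγ-only regions a RORγ XY018 region in 15.4% (15.2 to 15.7%), compared with 69.1% and 75.99% of shared regions. Neither factor was called with XY018 at 74.99% of SREBP2-only and 81.9% of RORγ-only regions. RORγ with XY018 was called at 18.2% of SREBP2-only regions, more than SREBP2 itself, and SREBP2 with XY018 at 3.82% of RORγ-only regions. The RORγ list with XY018 was the longer, with 129954 regions against 69700, and these shares were not adjusted for that. At q of at most 1e-05, 36.0% of the regions of each single-factor class were called again for their own factor, and 36.5% and 8.85% overlapped the other factor. When both lists were held to that threshold before the classes were formed, the SREBP2-only share was 6.04 points above the RORγ-only share (4.45 to 7.63), so no direction held. A second library at the same regions differed here in treatment as well, so treatment and repeat sequencing cannot be told apart.

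Genes were then grouped by the factors at their promoters. Of 20090 protein-coding genes, 14184 (70.6%) had an SREBP2 region and 12589 (62.7%) a RORγ region in the promoter window of at least 1 transcript. Both were present at 12106 genes (60.3%), SREBP2 only at 2078 (10.3%), RORγ only at 483 (2.40%) and neither at 5423 (26.99%). At the genes with both, the strongest regions of the 2 factors overlapped in 87.8%, and the others had them at separate sites. Promoters with both factors were the strongest, with a median of 32 SREBP2 and 24 RORγ fragments, while those with SREBP2 only had 12 and those with RORγ only 6. H3K27ac was present at 83.9% of promoters with both, 77.3% of those with SREBP2 only, 31.9% of those with RORγ only and 27.7% of those with neither. By this mark the RORγ-only promoters were nearer to unbound promoters, and the SREBP2-only promoters nearer to those with both.

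The call of a single factor at a promoter was firmer for SREBP2. Its region had q of at most 1e-05 at 1210 of the 2078 SREBP2-only genes, and at 1050 of them it also overlapped no RORγ region beyond the window. Of the 483 RORγ-only genes, 54 reached that threshold and 12 also overlapped no SREBP2 region. With both lists held to q of at most 1e-05, 115 genes had RORγ only and 2667 SREBP2 only. With promoters of 5000 bp to either side the numbers were 1040 and 1248. With XY018, SREBP2 was called at 41.1% of the SREBP2-only promoters and RORγ at 24.4% of the RORγ-only promoters.

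Of the SREBP2-only genes, 171 of 2078 (8.23%) had a region that ran beyond the promoter window and met a RORγ region there, and of the RORγ-only genes 56 of 483 (11.6%) had one that met an SREBP2 region. Such regions made up most of the genes of highest fold. Among SREBP2-only promoters these were PLA2G2C (a phospholipase gene, fold 27.2, 77 fragments), POU2F1 (the octamer factor Oct-1, 21.1), PPP2R1A (19.7), NFYA (the DNA-contacting subunit of NF-Y, 19.5), TCF21 (18.7), SLC25A27 (17.7), HES1 (a repressor acting downstream of Notch, 17.1), DNAAF2 (17.1), EOMES (16.8) and HLA-B (a class I antigen-presenting molecule, 16.8). The region met a RORγ region outside the window in 8 of them. PPP2R1A and HLA-B were the exceptions. Among RORγ-only promoters the first were ENSG00000257355 and ZNF878, which share 1 region (fold 32.5, 59 fragments), GPR148 (30.2), RBMXL3 (29.7), HOXC4 (24.6), OR1R1P (23.5), CRHBP (22.4), VTN (22.4), H1-7 (22.1) and ZNF763 (19.4). All 9 regions of these 10 genes overlapped an SREBP2 region outside the window, and 1 of them, at HOXC4, had H3K27ac.

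Cholesterol biosynthesis, the pathway SREBP2 is best known for, was bound by both factors at 16 of 21 genes, by SREBP2 only at 2 and by RORγ only at none. Of all promoters, 60.3% had both factors, and the counting interval of the 16 genes (52.8 to 91.8%) includes that share. IDI1, which interconverts the isoprenoid building blocks, had 55 SREBP2 and 19 RORγ fragments. MVD, the decarboxylase of the mevalonate route, had 69 and 46, at separate summits 804 bp apart. At HMGCS1 the RORγ region had 4 fragments, with the summits 330 bp apart and no overlap of the regions.

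The SREBP2-only members were MSMO1, which removes methyl groups from sterol intermediates (fold 3.97, 11 fragments, nearest RORγ region 2160 bp away), and SC5D, a sterol desaturase (15.4, 31 fragments), whose region met a RORγ region outside the window. PMVK, FDPS and HSD17B7 had neither factor.

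Genes that sense sterols and process SREBPs had both factors in 15 of 17 cases, against 60.3% of all promoters. INSIG1, which retains the SREBP complex in the endoplasmic reticulum, had 44 SREBP2 and 42 RORγ fragments with summits 21 bp apart, and SREBF1 had 32 and 29 fragments 8 bp apart. STARD4, a carrier of cholesterol, was SREBP2 only (fold 4.70, 14 fragments, nearest RORγ region 36735 bp away), and INSIG2 had neither.

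Most SREs of these lipid promoters lay over 500 bp from any SREBP2 region. Of 69 lipid genes, 19 had at least 1 SRE in a promoter window, 28 SREs in all. Inside an SREBP2 region lay 2 of them, at FDFT1 and FASN, and inside a RORγ region 1, at FDFT1. A further 6 were within 500 bp of an SREBP2 region and 20 were farther away. The SRE of HMGCS1 printed above lay 77 bp outside an SREBP2 region of 8 fragments, and that of SREBF2 crossed the edge of a region of 49 fragments.

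Fatty acid synthesis and desaturation genes had both factors at 15 of 19, against 60.3% of all promoters. FASN, the fatty acid synthase, had 41 SREBP2 and 48 RORγ fragments in regions that overlapped, with summits 6857 bp apart. Another shared SREBP2 region, of 44 fragments, held the SRE of a FASN promoter. ACLY, which makes cytosolic acetyl-CoA, had 20 SREBP2 and 4 RORγ fragments, and SCD, the stearoyl-CoA desaturase, had 18 and 10. GPAM, which starts glycerolipid synthesis, was SREBP2 only (fold 8.88, 17 fragments). ELOVL6, MID1IP1 and THRSP had neither.

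RORγ-only lipid genes were found in the lists of efflux, steroid hormone and bile acid genes. Of all promoters, 60.3% had both factors, 10.3% SREBP2 only and 2.40% RORγ only, and with so few genes in each list the counts are a description. Among 12 genes of LXR signalling and cholesterol efflux, 6 had both factors, and APOE, an apolipoprotein of lipid transport (fold 5.60, 9 fragments), and CETP, the cholesteryl ester transfer protein (2.66, 6 fragments), had RORγ only. NR1H3, encoding LXRα (2.44, 5 fragments), and LPCAT3, a phospholipid-remodelling enzyme (5.95, 18 fragments), had SREBP2 only. Of 19 steroid hormone genes, 8 had both, CYP11B1, the last enzyme of cortisol synthesis (4.48, 7 fragments), and HSD17B3, which makes testosterone (4.99, 8 fragments), had RORγ only, and STAR, which carries cholesterol into mitochondria (3.45, 6 fragments), had SREBP2 only. Of 16 bile acid genes, 8 had both, NR1H4, the bile acid receptor FXR (3.36, 5 fragments), had RORγ only, and HSD3B7 (3.13, 9 fragments) and NR0B2 (6.33, 19 fragments) had SREBP2 only. The NR0B2 region met a RORγ region outside the window, and that of HSD3B7 lay 209 bp from one. The RORγ-only calls at these 5 genes rested on 5 to 9 fragments each. With XY018, RORγ was called again at none of the 5, compared with 24.4% of all RORγ-only promoters. The CYP11B1 promoter then had an SREBP2 region. The CYP11B1 region lay 417 bp from an SREBP2 region.

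Genes known for control by ROR receptors were examined in the same way, against 60.3% of all promoters with both factors and 26.99% with neither. Of 24 circadian clock genes, 21 had both factors, among them BMAL1, the positive arm of the clock (22 SREBP2 and 24 RORγ fragments), and NR1D2, a repressor of it (23 and 22). NR1D1 and CIART had neither. Of 18 genes of the Th17 programme, 6 had both, among them STAT3, a transcription factor of this programme (25 SREBP2 and 11 RORγ fragments), the cytokine receptor IL23R (2.73, 8 fragments) had SREBP2 only, and 10 had neither, including IL17A, IL17F and CCR6. No gene of either list had RORγ only. Nuclear receptor coregulators had both factors at 14 of 16 and neither at 2.

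The unfolded protein response had the largest SREBP2-only share of all lists and families examined. Of its 18 genes, 10 had both factors, 7 (38.9%, 17.3 to 64.25%) SREBP2 only, against 10.3% of all promoters, and 1, ATF6, had neither. All 18 had H3K27ac. The SREBP2-only members were HSPA5, the chaperone BiP (fold 6.90, 13 fragments), HSP90B1, the chaperone GRP94 (4.44, 8), DNAJB9, a cochaperone of BiP (10.3, 26), SEL1L, a subunit of the complex that removes misfolded proteins (11.3, 26), PPP1R15A, which restores translation (4.88, 11), ASNS, the asparagine synthetase (9.09, 28), and CHAC1, which degrades glutathione (5.01, 15). None of these regions met a RORγ region, and the nearest was between 2274 bp (CHAC1) and 38047 bp (DNAJB9) away. With XY018, the promoters of HSPA5, DNAJB9 and SEL1L again had SREBP2 without RORγ. ASNS and CHAC1 then had both factors, and HSP90B1 and PPP1R15A had neither. The counting interval of the list does not allow for its choice as the highest of all those examined. Both factors were present at ATF4, XBP1 and DDIT3, and also at PDIA4, CALR, TRIB3 and HERPUD1. Of 19 glycolysis genes, 18 had both and LDHA, the lactate dehydrogenase subunit (5.43, 10 fragments), SREBP2 only.

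Breast lineage markers held both factors at 8 of 9 luminal and 5 of 9 basal genes, against 60.3% of all promoters. KRT17 had RORγ only (fold 3.36, 5 fragments), and KRT5, KRT6A and TP63 had neither. Of the 5 haematopoietic markers, 2 had both, SPI1 among them, and 3 neither.

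Larger gene families were read by their counts, and those named were picked after their values were seen. Families with a high SREBP2-only share were the proteasome subunits (12 of 39, 30.8%), translation initiation factors (16 of 55, 29.1%), minichromosome maintenance and origin proteins (6 of 21, 28.6%), mitochondrial ribosomal proteins (15 of 78, 19.2%) and cytosolic ribosomal proteins (16 of 85, 18.8%). RORγ-only shares were high among keratin-associated proteins (10 of 94, 10.6%), classical cadherins (2 of 23, 8.70%), serpins (3 of 35, 8.57%), chemokines and their receptors (5 of 59, 8.47%) and zinc finger ZNF genes (35 of 508, 6.89%), against 2.40% of all promoters. The counting intervals of the cadherins (1.07 to 28.0%) and the serpins (1.80 to 23.1%) include the share of all promoters. So does that of the immunoglobulin-like killer and lectin receptors, with RORγ only at 3 of 41 (7.32%, 1.535 to 19.9%). Of 399 olfactory receptor genes, 15 had RORγ only. Keratin-associated protein promoters with RORγ had a median of 6 fragments, and H3K27ac was present at 1 of the 94 genes. At proteasome promoters, by contrast, H3K27ac was present at 34 of 39.

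**Figure D5:**
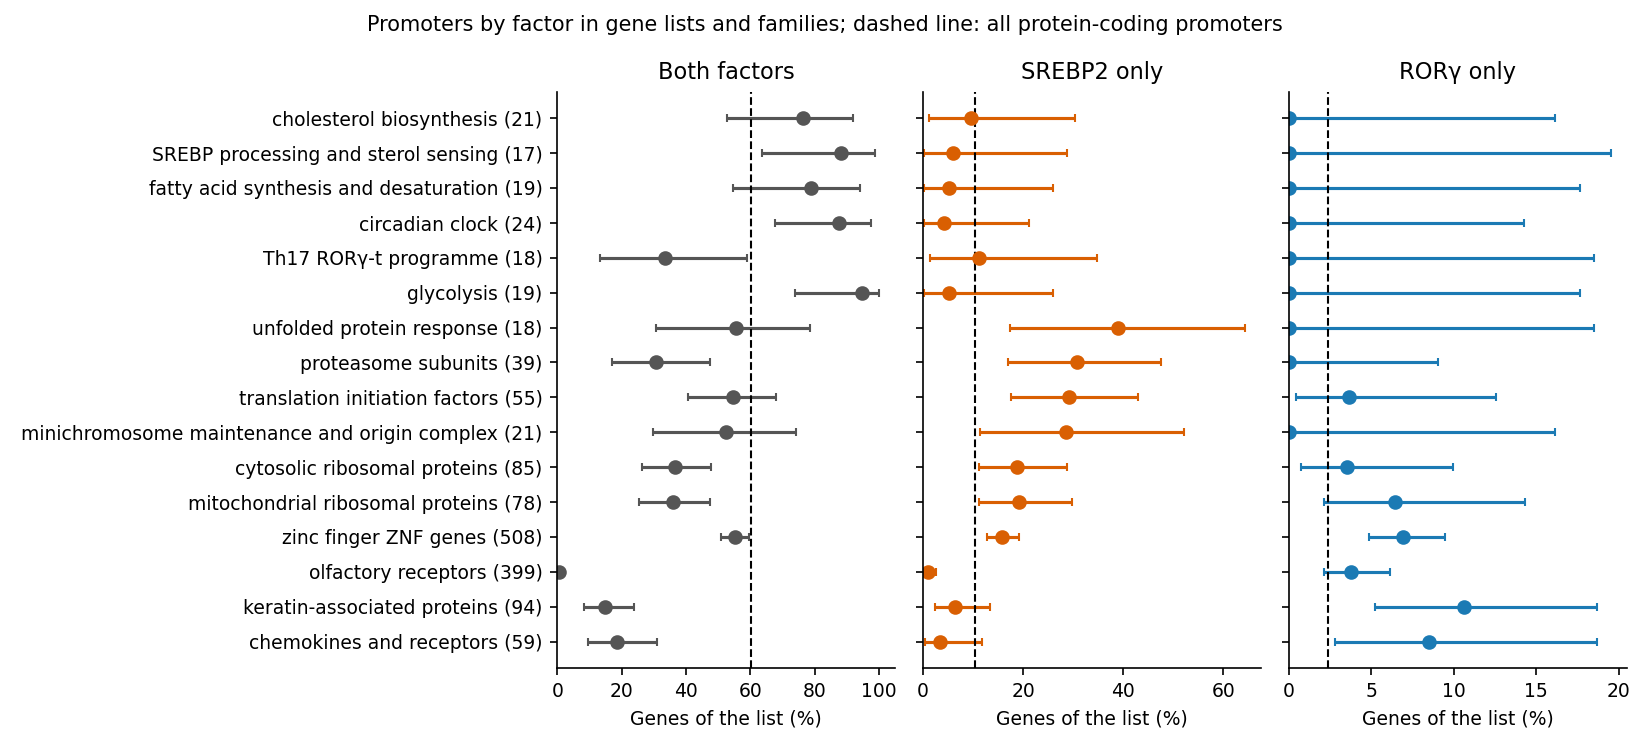
Share of genes (percent, with 95% counting intervals) whose promoter held both factors, SREBP2 only or RORγ only in 16 of the gene lists and families, with the number of genes in brackets and a dashed line at the share of all 20090 protein-coding promoters (60.3%, 10.3% and 2.40%). The unfolded protein response stands at 38.9% with SREBP2 only, and keratin-associated proteins at 10.6% with RORγ only.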

How the data were processed

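Peak lists were taken as deposited, 1 per library. According to the methods of the study, single-end reads were aligned to hg19 with BWA, duplicates and multiply placed tags were removed, and peaks were called with MACS. The submitters' processing notes name Bowtie2, MACS2 2.1.0 and bedtools. The authors' fold enrichment (a ratio), −log10 p-value and −log10 q-value of each peak were used as deposited. The display score the authors deposited was not used. The 6 input libraries were not used here.

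Classes were formed by an overlap of 1 bp. Fragments at the summit and background were recovered from the deposited fold and −log10 p-value under the Poisson model of MACS, which gave whole numbers for 100% of regions, with a tolerance of 5% of the step between whole numbers. Tags per kb are the background over the fragment length, taken as the smallest width. GRCh37 and GENCODE 44 lifted to it gave sequence, genes and transcript starts, and motifs and 12-base words were counted in windows of 100 bp to either side of the summit and in equal windows centred 1000 bp away. Intervals are Clopper-Pearson for shares, Newcombe for differences of shares, order statistics for medians and Poisson for fragments, all at 95%. Differences at like fold are means over 10 equal-sized classes of fold. Named genes were the single-factor members of lists of 40 or fewer genes with examples having both factors, the 10 genes of highest fold with 1 factor and the 5 strongest regions of each class. Classes, gene lists and comparisons were chosen with earlier results of these data known. The scripts were tested on simulated peak lists. Python 3.11.15, numpy 2.4.6, pandas 2.3.3, scipy 1.17.1 and pysam 0.24.0 were used. Alternatives were other q thresholds, lists of equal length, other rules of overlap, promoter and window, and 3 added after seeing the data. Some genes and sequences are not reported here.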

Additional observations from a re-analysis of the deposited data

Results flagged for a closer look

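Chromosome Y was outside the comparison of chromosomes 1 to 22 and X, and the deposited lists hold 55 SREBP2 regions and 111 RORγ regions on it. Both numbers are above the 3 that a count of 0 allows. These regions entered no comparison.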

How the results depend on the processing

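No paired analysis was possible because each group is 1 library and the labels give no shared replicate numbers. The limits are the single library per factor, the lists called at p of at most 0.01, the lower depth of the RORγ library and the small numbers of fragments in the single-factor classes. Of 83 shares, medians and differences under an alternative, 15 moved by no more than their counting interval, 62 moved further with the same direction and 6 changed sign. Of 12 counts of promoters, 7 stayed within 1.5 times the reported count and 5 did not. The cause of these changes was not tested.

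With both lists at q of at most 0.01, 51.0% of SREBP2 and 47.4% of RORγ regions were shared. The SREBP2-only minus RORγ-only difference was 12.4 points for promoters, 10.4 points for GC content, -0.985 points for the SRE, 14.5 points for H3K27ac and -2.47 points for regions called again with XY018. At like fold the promoter share of shared regions was 5.81 points above SREBP2-only and 23.3 points above RORγ-only regions, the median summit distance was 58 bp, and 260 promoters had RORγ only.

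With both lists at q of at most 1e-05, 60.7% of SREBP2 and 86.7% of RORγ regions were shared. The same differences were 23.8 points for promoters, 28 bp for width, 14.4 points for GC content, -1.97 points for the SRE, 31.3 points for H3K27ac and, with the opposite sign, 6.04 points for regions called again. At like fold the promoter differences were 8.65 and 38.9 points, the summit distance was 49 bp, and 115 promoters had RORγ only.

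With the longer list shortened to equal length, 43.8% and 43.3% were shared. The promoter difference was 8.65 points, the width difference changed sign to -10.0 bp, the difference in regions called again was -5.14 points, the promoter difference of shared over RORγ-only regions at like fold was 19.8 points, the summit distance was 62 bp, and 300 promoters had RORγ only.

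With an overlap of at least 50% of the shorter region, 45.5% and 32.0% were shared, the H3K27ac difference was 10.5 points, the promoter difference over RORγ-only regions at like fold was 21.0 points and the summit distance was 56 bp. With summits at most 100 bp apart, 32.4% and 22.8% were shared. The promoter difference was 8.94 points, the width difference 14 bp, the GC difference 8.46 points and the difference in regions called again -0.0162 points. At like fold the promoter difference was 8.52 points over RORγ-only regions and changed sign to -3.18 points over SREBP2-only regions, and the summit distance was 32 bp by construction.

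With promoters of 5000 bp to either side, the promoter difference between single-factor classes was 13.7 points, that of shared over RORγ-only regions at like fold 27.8 points, and that over SREBP2-only regions changed sign to -1.12 points. SREBP2 only was then found at 1248 and RORγ only at 1040 promoters. With no classes of fold, the promoter differences of shared over SREBP2-only and RORγ-only regions were 22.1 and 30.7 points. With windows of 50 bp to either side, the GC difference was 6.93 points and the SRE difference -0.105 points (-0.220 to 0.0120).

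A further 3 alternatives were chosen after seeing the data. Without the class of highest fold, the promoter differences of shared over SREBP2-only and RORγ-only regions at like fold were 1.42 and 16.15 points. With each factor's own regions at q of at most 1e-05 against the whole other list, 79.99% and 91.0% were shared. The differences between the single-factor classes were 24.4 points for promoters, 13.9 points for GC content, -2.16 points for the SRE, 30.9 points for H3K27ac and, with the opposite sign, 0.0270 points for regions called again. Without regions that hold a leading word of the RORγ-only class, 55.9% and 53.7% were shared. The differences were 11.8 points for promoters, 22 bp for width, 12.9 points for GC content, -1.13 points for the SRE, 14.8 points for H3K27ac and, with the opposite sign, 1.10 points for regions called again. At like fold the promoter differences were 4.83 and 18.0 points, and the summit distance was 64 bp.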

Other observations

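The classes were spread unevenly along the chromosomes. Within 5 Mb of a chromosome end lay 31.1% of shared SREBP2 regions, 19.7% of SREBP2-only regions and 12.2% of RORγ-only regions, against 7.57% of the genome. Chromosome 19 was densest in all 3 classes, with 79.5 shared, 70.98 SREBP2-only and 119.3 RORγ-only regions per Mb. RORγ-only regions outnumbered SREBP2-only regions on every chromosome, by a ratio of 1.09 on chromosome 22 up to 3.90 on chromosome X. At promoters, chromosome 19 also had the highest share of genes with RORγ only, 73 of 1480, while chromosome 6 had 8 of 1048 and chromosome 18 had 1 of 266.

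Some gene groups with development and excitability functions held each factor at most promoters. Of all protein-coding promoters, 70.6% had an SREBP2 region, 62.7% a RORγ region and 66.8% H3K27ac. Of 103 SOX, FOX, PAX, TBX and LHX factors, 89 had an SREBP2 and 85 a RORγ promoter region, and 53 had H3K27ac. Of 82 voltage-gated potassium channel genes, 69 had each factor and 34 had H3K27ac. Glutamate and GABA receptor genes had each factor at 35 of 45 promoters and H3K27ac at 11. Of 53 clustered protocadherin genes, 16 had SREBP2, 13 had RORγ and none had H3K27ac, and of 68 histone genes 15 had SREBP2, 8 had RORγ and 47 had H3K27ac. These groups were chosen after their values were seen.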
